A study of Mus musculus with 89 samples.

Results

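The lectin-like gene Clec2j, the sestrin Sesn3 and a red fluorescent reporter, mCherry/tdTomato, were the 3 targets of a mouse whole-transcriptome tag panel with higher signal at the tumour interface than in the stroma of squamous cell carcinoma. They are 3 of 19962 targets, and they were chosen by that difference in these same segments, so their interface-minus-stroma values are given as a description, without a test. The GeoMx platform hybridises oligonucleotide tags to RNA on a tissue section and releases them by ultraviolet light from regions drawn on a stained image, here on fresh frozen mouse tissue. The series covers 89 segments, all labelled neutrophil, on 3 slides: a naive slide before treatment, an acute slide and a relapse slide after immunotherapy.

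The authors' annotation sorts the segments into 7 classes: 15 of naive stroma, 13 of naive interface, 14 within the naive tumour, 9 of acute stroma, 2 of acute interface, 14 of relapse stroma and 22 of relapse interface. The scan name of the naive slide carries the words "UP HRass" and that of the relapse slide the words "DMBA Relapse". The relapse slide is also named "treated". Whether the slides hold the same tumour model was not settled here. The agents, strain, genotype, age and number of animals are not given in the sources used here. The segments share slides, pieces of tissue and animals, so p-values over segments are too small. No stage was sampled on more than 1 slide. A difference between stages and one between slides cannot be told apart.

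Clec2j belongs to the C-type lectin-related (Clr) family of the natural killer gene complex, whose best known members are ligands of the Nkrp1 receptors of natural killer cells. In the RefSeq annotation of GRCm38.p6 it is listed as a pseudogene at chr6:128655105-128657027. Sesn3 encodes sestrin 3, a stress-responsive protein that restrains the growth kinase complex mTORC1 and is a known target of FoxO transcription factors. It is a protein-coding gene at chr9:14276301-14326134. mCherry/tdTomato is no mouse gene: the target is named for a pair of red fluorescent proteins, which are present only in animals or cells engineered to carry one. The sources used here do not give whether the animals carried such a reporter.

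A segment's depth, taken as its tag counts above the floor of 1 count that every target holds, had a median of 7216 and ranged from 573 to 208675. The class medians were 64652 in acute stroma, 18307 at the naive interface and 3570 at the relapse interface. Of the 15 neutrophil markers on the panel, 3 passed the filter for testing, and 11.2% of the list's values were above the limit of quantitation, a threshold set by each segment's negative probes. Among the defining markers of the labelled cell type, Ly6g passed that limit in 6 of 89 segments, S100a9 in 38 and S100a8 in 44. In bulk segments of this kind, fewer cells of a type and less RNA per cell cannot be told apart.

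The 3 members were among the most often detected targets of the panel. Sesn3 exceeded the limit of quantitation in 79 of the 89 and Clec2j in 75, which placed them 44th and 58th of all targets. The mCherry/tdTomato target was above it in 59 segments. Clec2j held 2400 counts in all, Sesn3 1664 and mCherry/tdTomato 631. They stood at the floor of 1 count in 9, 3 and 14 segments.

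Clec2j counts were highest on the naive slide. The lowest, median and highest counts were 1, 13 and 133 in naive stroma. They were 10, 63 and 185 at the naive interface, and 1, 41.5 and 97 within the naive tumour. The ranges of the 3 naive classes overlapped, and no interface segment was at the floor.

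In acute stroma the Clec2j counts were 1, 13 and 39, although this class had the highest median depth. Its depths ran from 2110 to 208675, and the counts of 1 came from segments with depths of 3054 and 2110. The 2 acute interface segments had 5 and 16. Relapse stroma gave 1, 6 and 23 and relapse interface 1, 7.5 and 26. The relapse classes overlapped over nearly their whole range. In the order of the 7 medians, every class overlapped its neighbour.

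Sesn3 had the same order of classes by count. The lowest, median and highest counts were 2, 9 and 85 in naive stroma, 6, 33 and 134 at the naive interface and 1, 17 and 62 within the naive tumour. Acute stroma gave 1, 9 and 43, and the 2 acute interface segments gave 8 and 9. Relapse stroma gave 1, 6 and 19 and relapse interface 2, 7 and 16. No pair of neighbouring classes was separated.

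The mCherry/tdTomato counts were lower and ordered differently. They were 1, 6 and 23 in naive stroma, 2, 13 and 27 at the naive interface and 1, 4.5 and 15 within the naive tumour. In acute stroma they were 1, 10 and 34. The 2 acute interface segments had 15 and 21, the highest median of any class. Relapse stroma gave 1, 2.5 and 11 and relapse interface 1, 3 and 7, close to the floor.

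**Figure D1:**
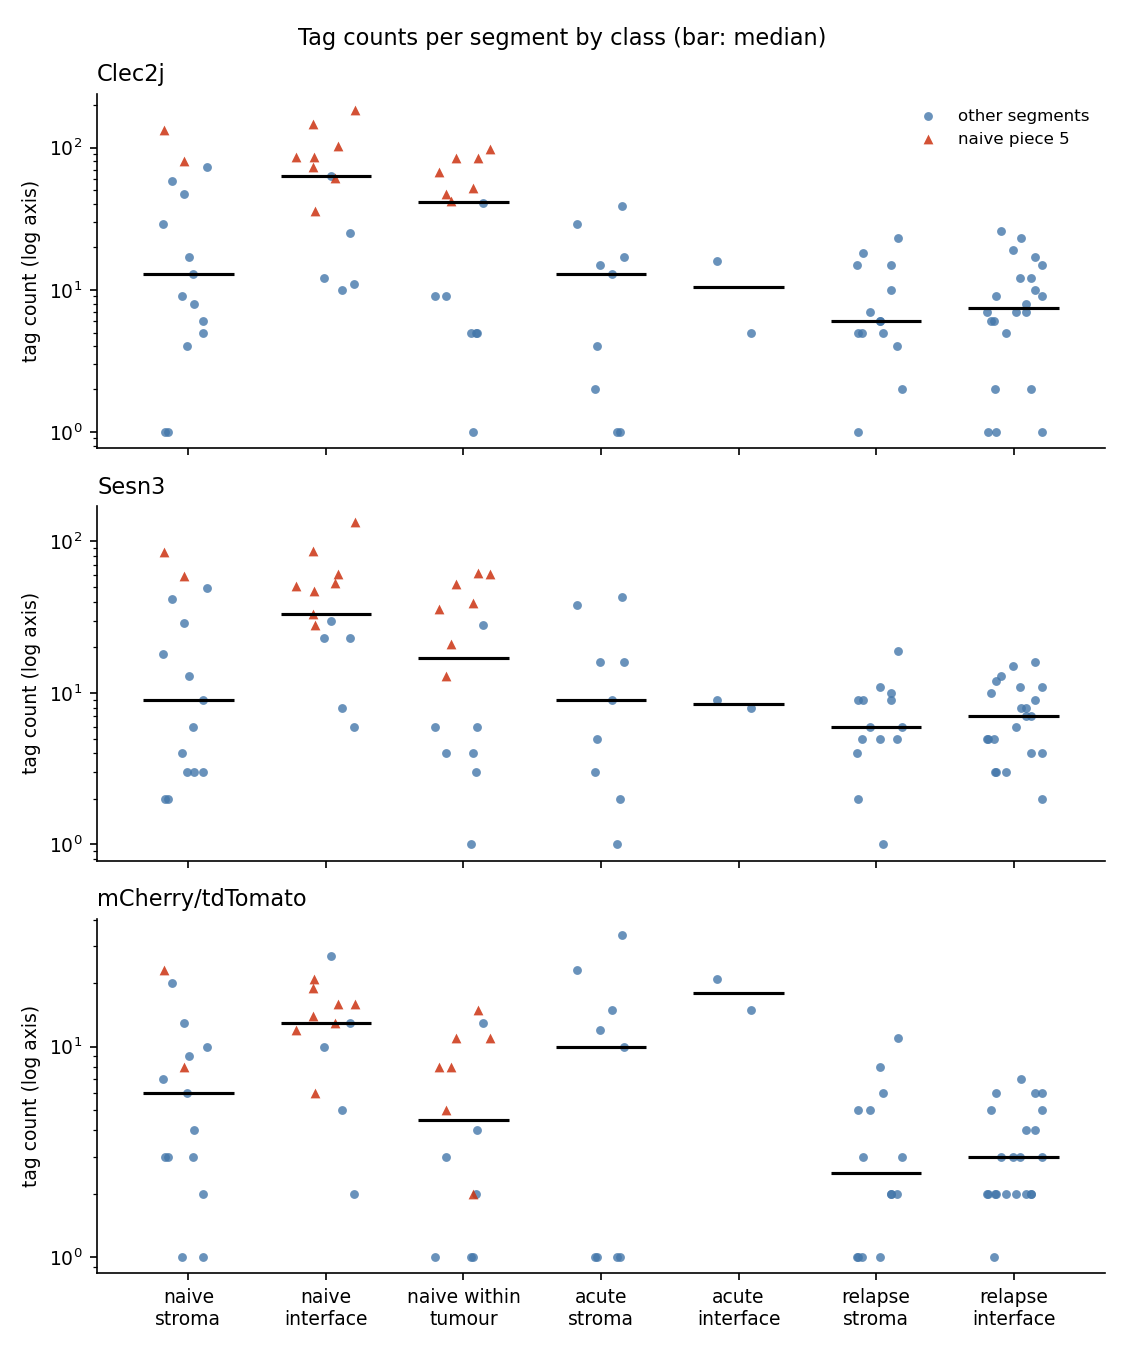
Tag counts of Clec2j, Sesn3 and mCherry/tdTomato (log axis) in each of the 89 segments, by class, with 1 point per segment and a bar at the class median. Red triangles mark the 17 segments of naive piece 5, which hold the highest Clec2j counts of all 3 naive classes (133 in stroma, 185 at the interface and 97 within the tumour).

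Because depth differed between classes, the counts were also set against each segment's depth. The median Clec2j count per 10000 counts was 7.56 in naive stroma, 38.03 at the naive interface and 54.8 within the naive tumour. It was 11.9 in relapse stroma and 24.5 at the relapse interface. In acute stroma it was 1.98, and the 2 acute interface segments had 0.992 and 3.18. On this scale the level within the tumour was above that of the interface, the reverse of the order by counts, and the ranges overlapped.

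Sesn3 per 10000 counts had medians of 5.59 in naive stroma, 21.3 at the naive interface and 31.6 within the naive tumour. They were 13.01 in relapse stroma, 20.9 at the relapse interface and 2.47 in acute stroma. The naive and relapse interfaces thus had nearly the same median share of Sesn3, while the counts had differed (33 against 7). The acute segments were lowest for both genes.

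For mCherry/tdTomato the median shares were 3.12 in naive stroma, 6.55 at the naive interface, 8.13 within the naive tumour, 1.54 in acute stroma, 5.37 in relapse stroma and 9.14 at the relapse interface. A target at the floor has a larger share in a shallow segment. The other 11 reporter and transgene targets of the panel show its size: their median share was 0.546 at the naive interface, 2.25 within the naive tumour and 2.83 at the relapse interface. Per 100 nuclei, the 2 acute interface segments had the highest mCherry/tdTomato counts of all 89, at 39.5 and 41.2. The next highest class maximum was 27.3, in acute stroma.

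**Figure D2:**
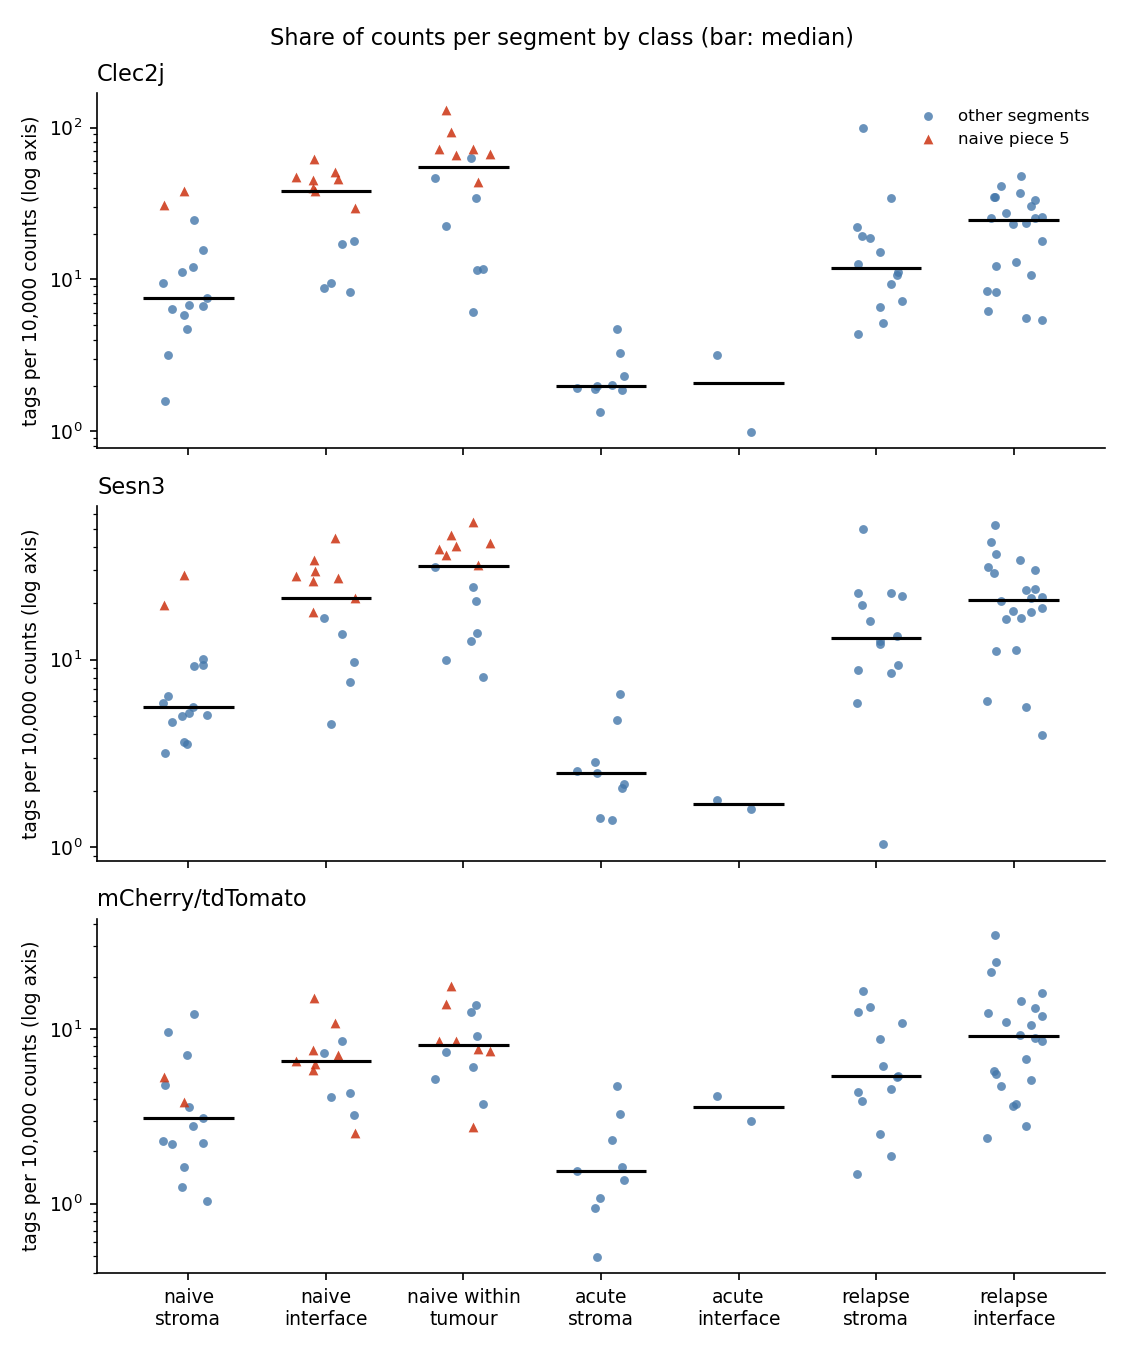
Counts of each target per 10000 counts above the floor (log axis) in each segment, by class, with a bar at the class median and naive piece 5 as red triangles. The acute classes have the lowest medians for Clec2j, 1.98 in stroma and 2.09 at the interface, and for Sesn3, 2.47 and 1.69, and the within-tumour segments of naive piece 5 reach the highest Clec2j share, 131.

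The contrast that chose the members was interface minus stroma in all segments, adjusted for treatment, on log2(normalised signal + 1). Clec2j was higher by 0.95, Sesn3 by 0.90 and mCherry/tdTomato by 0.67, the 1st, 2nd and 6th largest differences of the 5087 targets tested. These 3 were the only targets past the threshold in that direction, 0.059% of those tested, against 82 lower, 1.61%. These counts moved with the setting: after rescaling each segment to the same total, 10 targets were higher and 8 lower. Without single pieces the higher calls ran from 0 (without acute piece 1 or naive piece 5) to 15 (without relapse piece 3), and the lower calls from 0 (without naive piece 5) to 128 (without relapse piece 3). The adjusted p-values that set the members inside the threshold were 0.0250 for Sesn3, 0.0417 for mCherry/tdTomato and 0.0472 for Clec2j (limma). Just outside it were Sostdc1 at 0.0525, Nppa at 0.0573 and Gm35486 at 0.0578, with differences of 0.44, 0.57 and 0.54.

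For Clec2j and Sesn3 the value was largest on the naive slide, and for mCherry/tdTomato on the acute slide. On the naive slide, interface minus stroma was 1.56 for Clec2j, 1.46 for Sesn3 and 0.89 for mCherry/tdTomato. On the relapse slide it was 0.12, 0.24 and 0.23. On the acute slide, which holds only 2 interface segments, it was 0.24, -0.036 and 1.52. The mCherry/tdTomato signal was 14.02 and 19.63 in those 2 segments, and 1.87 to 11.2 in the 9 acute stroma segments. How many other targets differ in this way was not counted. Per 10000 counts the ranges overlapped, at 2.98 and 4.17 against 0.49 to 4.74. Whether the naive and relapse differences themselves differed was tested by limma with log2 depth as a covariate, a contrast that the choice of members does not fix. That comparison called 3.54% of targets, 3.5% higher and 0.0393% lower, and none of the 3 members passed. Relapse minus naive location difference was -1.12 for Clec2j (SE 0.51, adjusted p = 0.222), -0.99 for Sesn3 (SE 0.46, adjusted p = 0.233) and -0.52 for mCherry/tdTomato (SE 0.39, adjusted p = 0.538). Without the tissue piece described next (naive piece 5), these values were -0.41, -0.49 and -0.42.

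On the naive slide the high segments lay together in 1 piece of tissue. Grouping the segments by their stage coordinates gave 5 pieces on that slide. Naive piece 5 held 8 of the 13 interface segments, 7 of the 14 within the tumour and 2 of the 15 in stroma. The piece was singled out after its values were seen, so what follows is a description.

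Clec2j signal in the 17 segments of naive piece 5 was 67.3 at the lowest, 157 at the median and 194 at the highest. In the 25 segments of the other naive pieces it was 3.74, 29.3 and 51.1. The groups did not overlap. Sesn3 signal was 48.6, 95.4 and 146 in naive piece 5 and 3.74, 18.1 and 43.01 in the other pieces, again without overlap. Clec2j and Sesn3 were the only 2 of the 5087 tested targets, 0.0393%, with every segment of naive piece 5 above every other naive segment on this scale. Per 10000 counts no target was separated in this way.

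The mCherry/tdTomato signal overlapped between the groups. It was 7.48, 20.6 and 39.3 in naive piece 5 and 3.74, 10.7 and 22.4 in the other naive pieces. Per 10000 counts the medians were 46.96 against 9.52 for Clec2j, 31.9 against 8.05 for Sesn3 and 7.56 against 4.31 for mCherry/tdTomato. In a fit over the naive segments with location and log2 depth as covariates, naive piece 5 minus the others was 2.21 for Clec2j and 1.87 for Sesn3. These were the largest and second largest differences of the 5087 targets, whose median was -0.09. For mCherry/tdTomato it was 0.75, at rank 41.

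Within naive piece 5 all 3 locations were high. The 2 stroma segments had 30.7 and 38.2 Clec2j counts per 10000. The 8 interface segments had 29.4 at the lowest, 45.3 at the median and 61.98 at the highest, and the 7 within the tumour had 43.7, 72.1 and 131. Both stroma segments fell inside the interface range. For Sesn3 the 2 stroma segments had 19.6 and 28.2, the interface segments 18.03, 27.5 and 44.47, and the within-tumour segments 31.9, 40.4 and 54.05. Here too stroma lay inside the range of the interface.

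In the naive segments outside piece 5, the median Clec2j count per 10000 was 6.78 in 13 stroma segments, 9.52 in 5 interface segments and 22.4 in 7 within the tumour. For Sesn3 these medians were 5.18, 9.70 and 13.8, and for mCherry/tdTomato 2.79, 4.31 and 7.46. The ranges of the locations overlapped for all 3. In naive piece 1, the only other naive piece with all 3 locations, Clec2j was 6.38, 7.56 and 9.42 per 10000 in its stroma segments, 17.8 in its 1 interface segment and 34.4, 46.9 and 62.8 within the tumour, where the counts were only 5, 5 and 9.

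**Figure D3:**
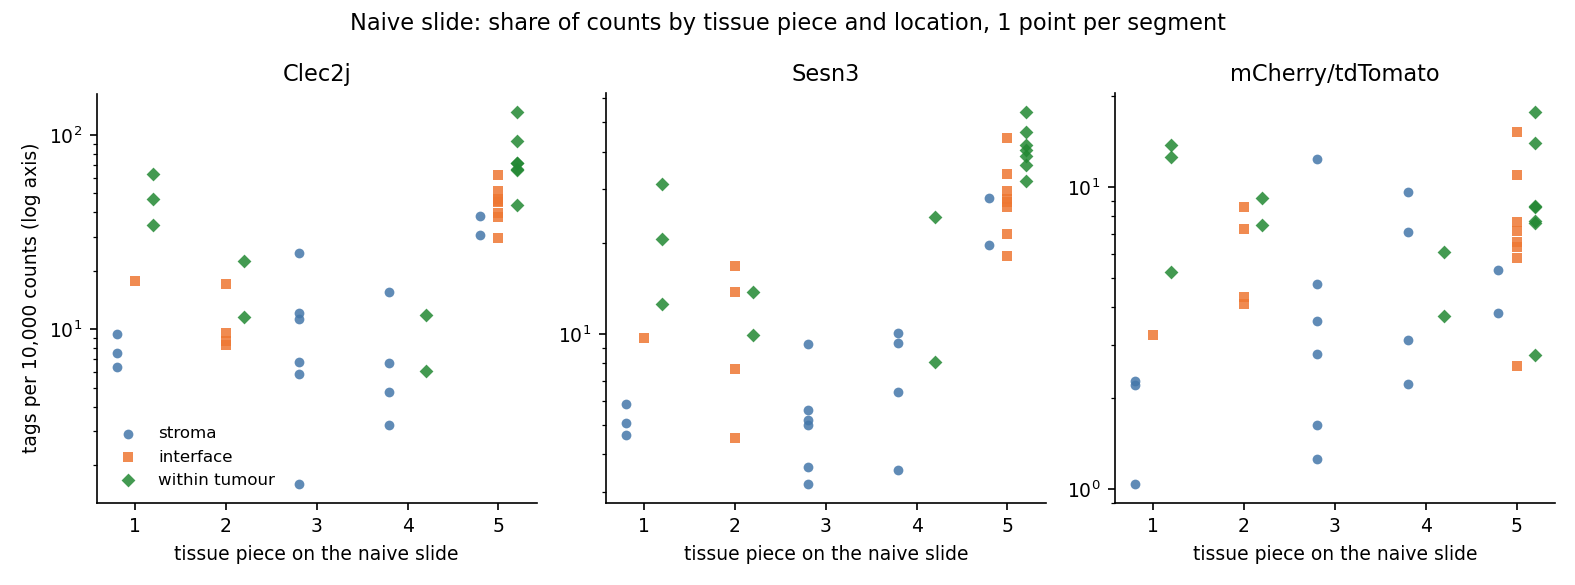
Counts of each target per 10000 counts above the floor (log axis) in the 42 naive segments, by tissue piece and location, with 1 point per segment. Clec2j and Sesn3 have higher medians in piece 5 than in the other pieces, at 46.96 against 9.52 and 31.9 against 8.05. On this scale the ranges of all 3 targets overlap between piece 5 and the other pieces.

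With the tissue piece as a covariate, interface minus stroma was -0.11 for Clec2j, -0.0028 for Sesn3 and 0.15 for mCherry/tdTomato. Their ranks fell to 3587, 2294 and 740 of 5087, and 0 targets were past the threshold in either direction (limma, 240 at an unadjusted p under 0.05). Of the 14 pieces, 6 held both stroma and interface segments. Leaving out naive piece 5 alone gave 0.63, 0.64 and 0.60, also with 0 targets past the threshold (limma, 550 at an unadjusted p under 0.05). At the same total and without that piece the differences were 0.90, 0.93 and 0.79, against a median of all targets of 0.29, and limma called 8 targets higher. After rescaling each segment to the same total, which moved the median of all targets to 0.20, the differences were 1.15, 1.11 and 0.80. With the piece added on that scale they were 0.10, 0.22 and 0.31, against a median of all targets of 0.16. On the relapse slide, 3 pieces held both locations, with no single direction for any member. In piece 3, with 9 stroma and 7 interface segments, the median counts per 10000 were 10.7 and 10.6 for Clec2j, 12.6 and 17.9 for Sesn3, and 5.35 and 5.54 for mCherry/tdTomato. In piece 1, with 2 stroma and 14 interface segments, they were 66.9 and 26.5, 36.3 and 26.4, and 10.6 and 11.4. In piece 4, with 1 segment of each, they were 5.16 and 8.37, 1.03 and 5.98, and 6.20 and 2.39.

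**Figure D4:**
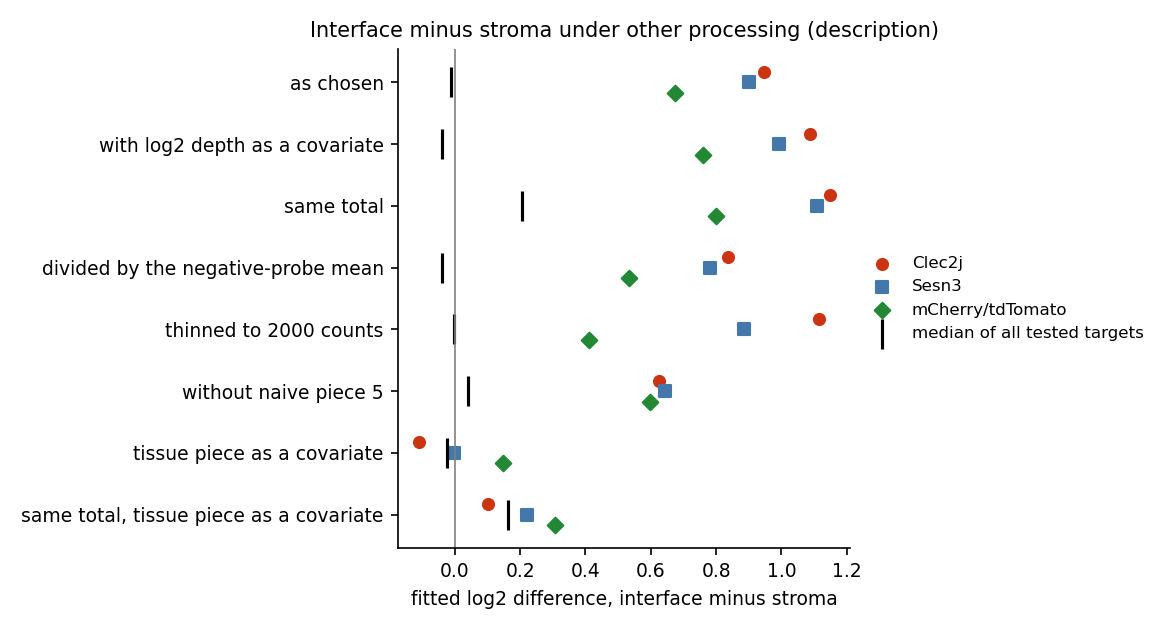
Fitted log2 difference, interface minus stroma, of the 3 members under other processing of the same segments, with a black bar at the median of all 5087 tested targets. All 3 stay between 0.41 and 1.15 under the depth, scaling and thinning alternatives and lie between -0.11 and 0.31 once tissue piece is a covariate.

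Naive piece 5 also differed at the median in depth, nuclei and the summed fibroblast and macrophage markers. These medians were not adjusted for location: stroma made up 13 of the 25 other naive segments and 2 of the 17 of naive piece 5. Its median depth was 14541 counts (3584 to 62910), against 7980 (796 to 96548) in the other naive segments, and its median number of nuclei 80 against 59. The median of its negative-probe means was 1.14 counts against 1.06. Summed levels of the 8 fibroblast markers had a median of 19.1 counts per 10000 (7.56 to 31.05) in naive piece 5 and 128 (9.78 to 374) in the others. The 8 macrophage markers had 8.94 (6.01 to 25.1) and 62.5 (6.33 to 791). The 11 keratinocyte markers had 15.1 (8.31 to 33.5) and 33.7 (5.99 to 378), and the 15 neutrophil markers 16.9 (7.63 to 50.2) and 27.6 (6.94 to 201). Each marker adds at least the floor of 1 count to these sums. The 11 other reporter and transgene targets, with 0.715% of their values above the limit, had 7.64 (3.18 to 30.7) and 15.04 (2.97 to 138). The part of the floor in the keratinocyte and neutrophil differences was not tested. The part of the depth, nuclei and marker differences in the Clec2j and Sesn3 levels was not tested either. Per 100 nuclei the Clec2j count was 94.8 at the median in naive piece 5 and 23.3 in the other naive segments, and the Sesn3 count 68.1 and 15.9.

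Relapse minus naive and acute minus naive were tested by limma over all 89 segments, with location and log2 depth as covariates. Relapse minus naive called 21 targets, 0.413%, of which 16 were higher and 5 lower. None of the members passed. The difference was -0.11 for Clec2j (SE 0.30, adjusted p = 0.970), 0.02 for Sesn3 (SE 0.27, adjusted p = 0.993) and -0.02 for mCherry/tdTomato (SE 0.23, adjusted p = 0.991). Without the depth covariate the Clec2j difference was -1.04 (adjusted p = 0.0262, limma), and without naive piece 5 it was 0.46 (adjusted p = 0.705, limma).

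Acute minus naive called 78 targets, 1.53%, of which 29 were higher and 49, or 0.963%, lower. The contrast that chose the members was adjusted for treatment, with the acute and relapse slides both after immunotherapy. The acute slide held 9 stroma and 2 interface segments, so a low acute level by itself raised interface minus stroma. Without acute piece 1, all stroma, that difference was 0.82 for Clec2j and 0.81 for Sesn3, against 0.95 and 0.90. The members' p-values for acute minus naive are thus a description. The mean Clec2j signal was 75.9 ± 63.9 (SD, n = 42) in the naive and 8.07 ± 3.77 (SD, n = 11) in the acute segments. The fitted log2 difference was -2.67 (SE 0.38, limma adjusted p = 2.92e-07). The mean Sesn3 signal was 48.3 ± 39.3 (SD, n = 42) in the naive and 8.54 ± 2.94 (SD, n = 11) in the acute segments, with a fitted difference of -1.95 (SE 0.34, limma adjusted p = 7.28e-05). Both fell. The mean mCherry/tdTomato signal was 14.8 ± 8.25 (SD, n = 42) and 7.92 ± 5.50 (SD, n = 11), and its difference of -0.96 did not pass (SE 0.29, limma adjusted p = 0.0540). It passed without naive piece 1 (adjusted p = 0.0250, limma), without naive piece 3 (0.0314) and after division by the negative-probe mean (0.00582).

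Without naive piece 5 the acute difference was smaller, at -1.94 for Clec2j (adjusted p = 0.00308, limma) and -1.28 for Sesn3 (adjusted p = 0.0436, limma). With plate as a covariate neither passed, at -1.97 for Clec2j (adjusted p = 0.377, limma) and -1.48 for Sesn3 (adjusted p = 0.612, limma). All naive segments were collected into plate G, and only 4 of the 11 acute segments were. After thinning every segment to 2000 counts, the Clec2j difference was -1.55 (adjusted p = 0.0439, limma), and the Sesn3 difference of -1.35 did not pass (adjusted p = 0.131, limma). Thinning left out 12 shallow segments, 4 of them naive and 8 relapse.

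Acute stroma was the one class with segments in both plates. The 4 in plate G had a median depth of 11646 and the 5 in plate H 111275. Clec2j counts had a median of 2.5 in plate G and 17 in plate H. On the scale of normalised signal, plate H minus plate G was 0.48 for Clec2j (p = 0.190, adjusted p = 0.286), 0.51 for Sesn3 (p = 0.159, adjusted p = 0.286) and 0.39 for mCherry/tdTomato (p = 0.508, adjusted p = 0.508), by two-sided exact permutation tests adjusted over the 3. None passed. Per 10000 counts the 3 differences had the opposite sign, at -0.60, -0.58 and -0.68.

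Counts of all 3 members followed depth. Over the 89 segments the correlation of log2 count with log2 depth was r = 0.64 and rho = 0.68 for Clec2j, 0.67 and 0.70 for Sesn3, and 0.77 and 0.77 for mCherry/tdTomato. The median r of all tested targets was 0.73. Over the pooled segments Clec2j and Sesn3 thus followed depth less closely than most targets, at ranks 4715 and 4247 of 5087. Within single slides Clec2j followed depth at r = 0.69 in 42 naive, 0.97 in 11 acute and 0.63 in 36 relapse segments. The medians of all targets there were 0.67, 0.85 and 0.36, and Clec2j ranked 2087, 102 and 116. Sesn3 followed depth at 0.76, 0.97 and 0.42, at ranks 626, 79 and 1757. In naive piece 5, over 17 segments, r was 0.90 for Clec2j and 0.92 for Sesn3, at ranks 42 and 26, against a median of 0.57. Within these groups both followed depth more closely than the median target. Plotted against depth, the Clec2j and Sesn3 counts of naive piece 5 lay along the upper edge of all segments and the acute counts along the lower edge.

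**Figure D5:**
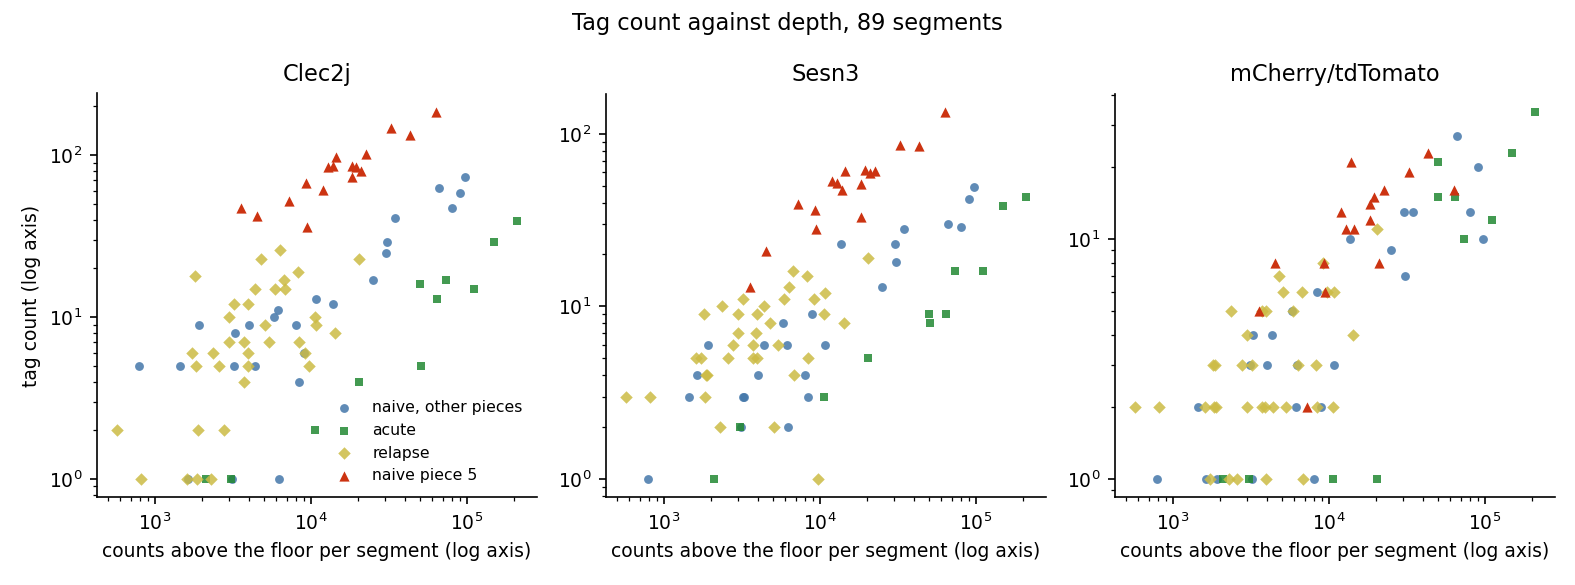
Tag count of each target against the counts above the floor of the same segment, both on log axes, for naive segments outside piece 5 (blue circles), naive piece 5 (red triangles), acute (green squares) and relapse (yellow diamonds). Clec2j and Sesn3 counts of naive piece 5 run along the upper edge of the points and the acute counts along the lower edge; for mCherry/tdTomato the groups overlap.

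Over the pooled segments the members' Pearson correlation was lower with the negative probes, which match no mouse RNA and measure background. The correlation of log2 count with the log2 negative-probe mean was r = 0.35 for Clec2j, 0.42 for Sesn3 and 0.60 for mCherry/tdTomato. The median of all tested targets was 0.74, and the members ranked 5081, 5079 and 4894 of 5087. The pooled rho was 0.60, 0.61 and 0.70, against 0.68, 0.70 and 0.77 with depth. In naive piece 5 r was 0.84, 0.81 and 0.53 (median of all targets 0.58), and in acute segments 0.92, 0.95 and 0.87 (median 0.86). It was 0.50, 0.52 and 0.59 over the naive slide (median 0.69) and 0.26, 0.06 and 0.34 over the relapse slide (median 0.30). The count was 8.80 times the negative-probe mean at the median for Clec2j, 6.95 times for Sesn3 and 4.00 times for mCherry/tdTomato. In naive piece 5 these medians were 71.3, 46.4 and 9.86, and in the other naive segments 8.94, 5.86 and 3.91. Correlations over segments share slide, depth and scaling, and are given without p-values.

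Clec2j and Sesn3 varied together. Their log2 signal had r = 0.85 and rho = 0.85 over the 89 segments, against a median r of Clec2j with all tested targets of -0.03. The correlation was 0.89 over 42 naive, 0.70 over 11 acute and 0.63 over 36 relapse segments. It was 0.54 within naive piece 5 and 0.56 over the other naive segments, both lower than on the naive slide as a whole. The Clec2j count was 1.31 times the Sesn3 count at the median, 1.63 times in naive piece 5 and 0.907 times in acute. The mCherry/tdTomato signal correlated with Clec2j at 0.55 and with Sesn3 at 0.58 over the 89 segments. These values were 0.57 and 0.61 over the naive, 0.61 and 0.33 over the acute and 0.33 and 0.40 over the relapse segments. Within naive piece 5 they were 0.20 and -0.10, and over the other naive segments 0.14 and 0.34.

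Sesn3 was the target most like Clec2j by correlation of log2 signal over the 89 segments. It was followed by Ube2d2b at 0.72, Pgrmc1 at 0.70, Klrg2 at 0.70 and Lsm14a at 0.69. Sesn3 had Clec2j first, then Ube2d2b at 0.72, Pgrmc1 at 0.71, Lsm14a at 0.70 and Chic2 at 0.70. For mCherry/tdTomato the likeness was weaker, with Sesn3 at 0.58, Gm40460 at 0.58, Chic2 at 0.57, Gm52800 at 0.57 and Lsm14a at 0.56. Ube2d2b was 9.37 counts per 10000 at the median in naive piece 5 and 4.60 in the other naive segments, a smaller ratio than for either gene.

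The relatives of Clec2j did not share its level. The list of other Clr lectins and Nkrp1 receptors had 13 targets on the panel, each with a median count of 1, the floor. Only 4 were tested, Clec2d, Clec2i, Clec2l and Klrb1f. None passed by limma in any of the 3 comparisons, where 2 of the 4 had an unadjusted p under 0.05 in acute minus naive and 0 in the others. Clec2d, the ligand of the receptor Nkrp1d, was above that limit in 19 of 89 segments, and it correlated with Clec2j at -0.29. Of the genes within 100 kb of Clec2j in RefSeq, A2ml1, Klrb1a, Clec2h and Klrb1 were on the panel, above the limit in 4, 0, 2 and 3 segments. Whether the Clec2j tag also binds RNA of a related lectin was not tested, as the probe sequences were not used here.

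The pathway of Sesn3 was sparsely detected. The list of 27 targets holds the other sestrins, the GATOR subunits through which sestrins act on mTORC1, the CASTOR arginine sensors, FoxO factors, AMPK, TSC and stress-response genes. Of these 8 were tested, and none passed by limma in any of the 3 comparisons, with 2 at an unadjusted p under 0.05 in each. The median difference of the 8 was 0.05 in relapse minus naive and 0.01 in acute minus naive, beside 0.05 and -0.02 for all targets. In the location difference it was 0.38, beside 0.16 for all targets. Sesn1 and Sesn2, the other sestrins, were above the limit of quantitation in 7 and 4 segments. Txnip, a thioredoxin-binding protein that responds to glucose, was the most often detected of the list, in 48 segments. Its difference was -0.70 in relapse minus naive (adjusted p = 0.204, limma) and -0.78 in acute minus naive (adjusted p = 0.127, limma).

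The mCherry/tdTomato target stood apart from the other reporters by count. The 11 others, among them GFP, TagRFP, Cre and LacZ, were above the limit in at most 2 segments each, or 0.715% of their values, and none passed the filter for testing. The mCherry/tdTomato count was above that of every other reporter in 72 of 89 segments. This held in 13 of 13 segments of the naive interface, 2 of 2 of the acute interface and 20 of 22 of the relapse interface. It held in 13 of 15 segments of naive stroma, 5 of 9 of acute stroma and 8 of 14 of relapse stroma, and in 11 of 14 within the naive tumour. The split between interface and stroma uses the values by which this target was chosen, so it is a description only. Counts were low even so, with a highest value of 34.

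Among the marker lists of other cells, 6 of 8 keratinocyte markers tested were higher in relapse than in naive (Krt5, Krt6a, Krt14, Krt16, Krt17 and Dsp), where 0.315% of all targets were higher, and 2 of 7 fibroblast markers were lower (Col1a1 and Col3a1), where 0.0983% were, by limma. Krt5 rose by 2.26 and Col1a1 fell by 1.59. In acute minus naive the muscle gene Mylpf rose by 0.77 (adjusted p = 0.0462, limma). With plate as a covariate none of these calls between slides passed, with adjusted p from 0.173 to 0.978 (limma). In the location difference, which called 3.5% of targets higher, 6 of 7 fibroblast markers (Col1a1, Col1a2, Col3a1, Dcn, Lum and Postn), 3 of 8 keratinocyte markers (Krt5, Krt16 and Dsp) and 2 of 8 macrophage markers (Apoe and C1qa) were higher in relapse than in naive, in the same comparison in which the members had negative values that did not pass. All of these location calls also passed with plate as a covariate. Their part in the members' values was not tested.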

How the data were processed

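The deposited matrix holds normalised signal for 19962 targets in 89 segments, with the negative-probe target left out. Per the file headers the annotation gives each segment's upper-quartile factor, a ratio by which the authors divided the tag count. Multiplying back gave whole numbers for 99.9858% of values within 1e-06, and 1 count is the floor. The deposited negative-probe mean is a signal and its geometric SD a ratio. The submitters' processing notes name mm10 and Seurat. The aligner and counter are not given in the sources used here.

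Targets above the limit of quantitation in at least 10% of segments were tested (5087). The limit is the larger of 2 counts and the negative-probe geometric mean times their geometric SD to the power 2. Tests used limma 3.58.1 in R 4.3.3 (lmFit and eBayes with trend, two-sided) on log2(value + 1), with location and log2 depth as covariates or, for the location difference, 7 class means and log2 depth. Benjamini-Hochberg adjustment at 0.05 ran over all 5087. The fit was also run on simulated data with independent segments. That simulation had no shared slide, piece or plate effects, so it cannot show how the fit behaves under such sharing. Tissue pieces were segments within 8000 coordinate units of a neighbour, a gap chosen after the coordinates were seen. The RefSeq tables of GRCm38.p6 matched 19818 target names and 2 of the 3 members.

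The members and lists were chosen with earlier results of these data known. Genes were named by rule: the members, targets next to the threshold, the 5 most alike targets of each member, and list members past the threshold. Ly6g, S100a8 and S100a9 (defining markers of the labelled cell type), Sesn1, Sesn2, Clec2d, Txnip, the neighbours of Clec2j and the other reporters were named outside it. The reporter list was widened once the target names had been read. Alternatives covered depth, filter, pseudocount, scaling, plate, tissue piece, thinning and leaving out each piece.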

Additional observations from a re-analysis of the deposited data

How the results depend on the processing

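Without the depth covariate limma called 194 targets in relapse minus naive and 44 in acute minus naive, against 21 and 78 with it. With plate as a covariate it called 1 and 0 (270 at an unadjusted p under 0.05 in the latter), with a random block for tissue piece 12 and 24, and on thinned counts 11 and 12. Acute minus naive gave 40 calls with a pseudocount of 4, 419 after division by the negative-probe mean (34 higher) and 1076 after rescaling to the same total (1065 higher; 29 of 78 in the reported fit). Relapse minus naive gave 17 higher of 27 on the latter scale. The location difference, 180 calls, gave 93 without the filter, 78 at the same total, 115 over the negative-probe mean, 81 with the random block and, thinned, 0 (limma, 316 at an unadjusted p under 0.05). Without single pieces the counts lay between 10 and 49, 15 and 202, and 10 and 241; naive piece 5 gave 49, 26 and 10.

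The members' relapse-minus-naive values lay near 0 and changed sign: Clec2j 1.11 with plate, Sesn3 -0.64 without depth, -0.0064 with a pseudocount of 4 and -0.18 over the negative-probe mean, mCherry/tdTomato 0.013 with plate, 0.0071 with the random block and 0.091 after thinning. Without single pieces they lay between -0.53 and 0.46, -0.20 and 0.50, and -0.15 and 0.12. The mCherry/tdTomato location difference was 0.030 after thinning. Acute minus naive kept its sign for all 3 members under every alternative run, at -3.07 to -1.94, -2.31 to -1.28 and -1.09 to -0.77 without single pieces. Interface minus stroma was -0.11 for Clec2j and -0.0028 for Sesn3 with piece as a covariate, and 0.63 to 1.22, 0.64 to 1.19 and 0.58 to 0.86 without single pieces. The plate differences per 10000 counts were -0.60, -0.58 and -0.68. The causes were not tested. The labels give no replicate numbers to pair segments by, so only tissue piece was used as a block. The planned edgeR test was not run, since the deposited unit is normalised signal; counts recovered from it were described, rescaled and thinned, not put to a count test. The 2 fits that add piece to the same total or leave out naive piece 5 on that scale were chosen after seeing the data.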
